A study of Mus musculus with 6 samples.

Results

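The 3 control libraries analysed here, out of 6 in the series, come from mouse motor neuron progenitors made in culture and harvested on day 4. They are all the libraries whose titles carry the control label, and the level and rank of every gene are described within this group alone. The cells were wild type by their genotype label and were derived from C57BL/6 embryonic stem cells that had been grown on mitotically inactivated fibroblast feeders. Embryoid bodies were started from 500 cells each, moved on day 2 into medium with 1 µM retinoic acid and 0.5 µM SAG, an agonist of the hedgehog pathway, and given fresh medium on day 3. Doxycycline at 1 µg/mL, begun 36 h before harvest, is described for the control cells as for the other group, and no source used here says whether control cells carried a hairpin construct. Nothing states that the libraries came from separate cultures, so the spread between them may be technical.

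In the embryonic neural tube, retinoic acid gives neural cells a hindbrain to spinal cord identity, and Sonic hedgehog secreted ventrally divides the progenitors into stacked domains. Each domain is recognised by its combination of transcription factors: Olig2 and Nkx6-1 together mark motor neuron progenitors, Nkx2-2 the p3 domain below them, Foxa2 the floor plate, Dbx1 and Irx3 the intermediate domains, and Pax3 and Pax7 the dorsal ones. Position along the head-to-tail axis is read from the Hox genes, which lie in 4 clusters in the order in which they are used along the body.

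Polyadenylated RNA was sequenced to a total of 32046466, 27153918 and 19871993 counts in control replicates 1, 2 and 3, and values below follow this order. Levels are the authors' FPKM (fragments per kilobase of exon, scaled to the library's total count), which allow genes to be compared with each other. A mean of at least 1 FPKM was reached by 12453 of 55400 genes (22.5%) and by 10939 of 21896 protein-coding genes (50%). Ranks and percentiles below are among the 21896 protein-coding genes, whose median mean level was 0.993 FPKM and whose 90th percentile was 24.1 FPKM. Control replicate 1 stood apart. Across 10939 genes its log2(FPKM + 1) levels correlated with those of replicates 2 and 3 at r = 0.939 and 0.932, against 0.990 between replicates 2 and 3. It also held more counts from mitochondrially encoded genes, 2.18% against 0.748% and 0.946%. Every pair differed by more than sampling noise: chi-square per degree of freedom was 27.9 for replicates 2 and 3, and 218 and 225 for the pairs with replicate 1. In bulk RNA, fewer cells of a type and less RNA per cell cannot be told apart, and this applies to every level below.

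The markers of the labelled cell type were present in every control library. Olig2, the basic helix-loop-helix factor that defines motor neuron progenitors (ENSMUSG00000039830, mm10 chr16:91225457-91228677, plus strand), stood at 78.7, 65.6 and 76.6 FPKM. Its mean of 73.6 ± 7.04 (SD, n = 3) ranked 576th, above 97.4% of protein-coding genes. Nkx6-1, a homeodomain factor of the ventral progenitor domains (chr5:101658139-101664996, minus strand), stood at 47.8, 42.4 and 63.4 FPKM and ranked 911th. The highest library was 1.2 and 1.5 times the lowest for these factors, a log2(FPKM + 1) range of 0.26 and 0.57. With each library's trend on GC content and length removed (a setting added after the data were seen), the ranges were 0.77 and 0.66, so the closeness of the Olig2 levels holds for the deposited scale. Sox2, which maintains neural progenitors, stood at 67.3, 83.8 and 72.7 FPKM, above 97.4% of protein-coding genes. Neurog2, a proneural factor that drives neuronal commitment, was lower, at 6.32, 5.95 and 6.69 FPKM. Tubb3, a tubulin of young neurons, was at 19.0, 17.3 and 26.1 FPKM. Mnx1, a homeodomain factor of postmitotic motor neurons, was at 10.7, 22.8 and 11.3 FPKM, so that replicate 2 was 2.14 times replicate 1 and the mean without replicate 2 was 11 FPKM. Setd5, the gene targeted in the other libraries of the series, ranked 2743rd in the control cells at 22.2, 18.8 and 16.7 FPKM.

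Along the dorsoventral axis, the control cells expressed ventral progenitor genes at high levels and most dorsal genes at levels near 0. Of 8 motor neuron progenitor genes, 7 had a mean of at least 1 FPKM, against 50% of all protein-coding genes, and their median level was 13.4 FPKM. The exception was Lhx3, a LIM homeodomain factor of early motor neurons and V2 interneurons, at 0.65, 0.50 and 0.64 FPKM. Nkx6-2, a relative of Nkx6-1, stood at 40.1, 50.5 and 52.2 FPKM. Olig1, the neighbour of Olig2, was lower, at 11.9, 12.7 and 17.1 FPKM. Pax6, which is known to be graded from low ventral to high dorsal levels, stood at 7.97, 5.87 and 6.24 FPKM, and Olig2 exceeded it by 9.87, 11.2 and 12.3 times within the libraries.

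**Figure D1:**
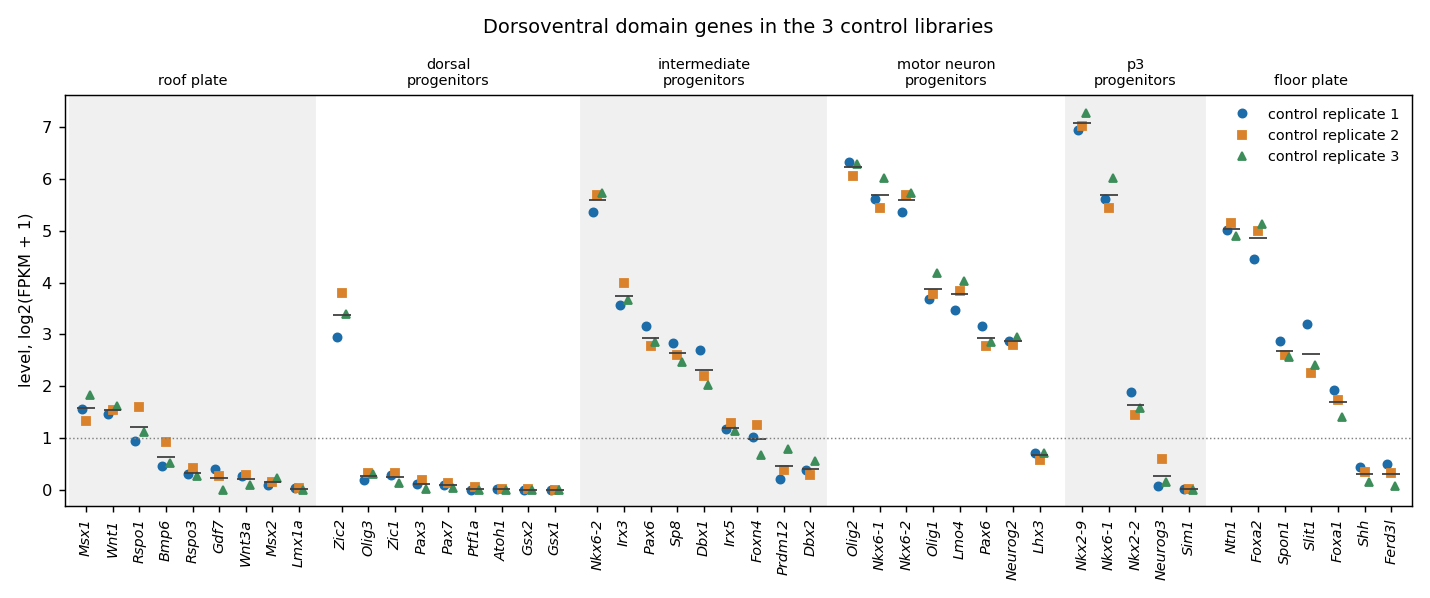
Level of dorsoventral domain genes as log2(FPKM + 1) on the vertical axis, with genes grouped by domain on the horizontal axis; points are the 3 control libraries, bars their means, and the dotted line marks 1 FPKM. Olig2, Nkx6-1, Nkx6-2 and Nkx2-9 sit high in all 3 libraries, whereas Pax3, Pax7 and Sim1 lie close to 0; Pax6, Nkx6-1 and Nkx6-2 appear in more than 1 domain.

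The p3 domain genes, which lie next to the motor neuron progenitors, were split. Nkx2-9, a homeodomain factor induced early by hedgehog signalling (chr12:56611389-56613284, minus strand), was the highest gene of the dorsoventral lists at 121, 129 and 152 FPKM and ranked 278th. Its relative Nkx2-2, the factor that represses Olig2 in the p3 domain, stood at 2.69, 1.73 and 2.01 FPKM, near the middle of the ranking. Sim1, a marker of V3 interneurons born from that domain, had 8 counts in all 3 libraries together. Within libraries Nkx2-9 exceeded Nkx2-2 by 45.0, 74.3 and 75.7 times, and Olig2 exceeded it by 29.3, 37.9 and 38.1 times. The log2 ratio of Olig2 over Nkx2-2 was 5.12 ± 0.22 (SD, n = 3), a small spread beside its size.

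Floor plate genes showed a similar split. Foxa2, a forkhead factor required for the floor plate, stood at 21.1, 30.8 and 34.1 FPKM and ranked 1820th. Ntn1, which encodes the axon guidance protein Netrin-1 and is also made by ventral progenitors outside the floor plate, stood at 31.4, 34.5 and 29.0 FPKM. Shh itself, the signal that mature floor plate secretes, was at 0.36, 0.28 and 0.11 FPKM, from 61 counts in all. Foxa1, a relative of Foxa2, was at 2.80, 2.34 and 1.65 FPKM.

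Most dorsal genes were low. The roof plate list had 3 of 9 members at or above 1 FPKM and the dorsal progenitor list 2 of 10, both below the 50% over all protein-coding genes. Pax3 stood at 0.08, 0.14 and 0.02 FPKM and Pax7 at 0.07, 0.10 and 0.03 FPKM. Olig3, of the dorsal-most progenitors, stood at 0.14, 0.25 and 0.24 FPKM. Gsx1 had no count in any control library, which allows a level of up to 0.0214 FPKM for 3 counts over the group. Zic2 was higher, and stood at 6.70, 13 and 9.44 FPKM, and Wnt1 and Msx1, of the roof plate, had means of 1.91 and 2.01 FPKM.

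Intermediate progenitor genes lay between these extremes. Of 9 members, 7 reached a mean of 1 FPKM, against 50% of all protein-coding genes. Among the 7 are Nkx6-2 and Pax6, which the motor neuron progenitor list also holds. Irx3, which sets the dorsal border of the motor neuron domain, stood at 10.8, 14.9 and 11.6 FPKM. Dbx1, of the V0 domain, was at 5.48, 3.61 and 3.08 FPKM, and its relative Dbx2 at 0.31, 0.22 and 0.48 FPKM.

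As a list, genes of differentiated motor neurons lay somewhat below protein-coding genes at large. Of 18 members, 8 (44.4%) reached a mean of 1 FPKM, near the 50% of all protein-coding genes. The median member was at 0.682 FPKM, beside 0.993 FPKM over all protein-coding genes. Isl1, the LIM homeodomain factor of new motor neurons, stood at 2.18, 0.73 and 0.94 FPKM. The highest Isl1 level was in replicate 1, whereas the highest Mnx1 level was in replicate 2, and the log2 ratio of Mnx1 over Isl1 varied widely, at 3.61 ± 1.34 (SD, n = 3). Chat, which makes acetylcholine, had 22 counts in all, and the choline transporter gene Slc5a7 had 8. Phox2a, a homeodomain factor of hindbrain motor neurons, was at 3.59, 7.42 and 6.11 FPKM. Tbx20, a T-box factor of visceral and branchial motor neurons, was at 0.14, 0.06 and 0.10 FPKM. Prph, a filament gene of peripheral axons, varied most of these, at 1.75, 10.0 and 3.60 FPKM.

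Interneuron markers were lower still. Of 13 ventral interneuron genes 2 reached 1 FPKM, Sox21 and Lhx1, and of 10 dorsal interneuron genes 1 did, Lmx1b. Evx1 and En1, of V0 and V1 interneurons, had 1 and 6 counts, and Sox14 had none. Gata3, of V2b interneurons, stood at 0.64, 0.62 and 0.71 FPKM. Lhx1, which several interneuron classes and lateral motor neurons use, was at 3.16, 3.17 and 6.07 FPKM.

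Along the head-to-tail axis, most Hox genes of paralog groups 1 to 5 were high in the control libraries, and those from group 9 on were near 0 apart from Hoxb9. The 12 genes of groups 1 to 4 had a median level of 18.2 FPKM. Of groups 5 to 8, 8 of 11 genes reached a mean of 1 FPKM, and of groups 9 to 13, 1 of 16, against 50% of all protein-coding genes. Hoxb4 and Hoxc4 stood at 68.4, 74.1 and 65.8 and at 54.6, 55.0 and 62.2 FPKM, with the highest library 1.13 and 1.14 times the lowest. Their log2 ranges of 0.17 and 0.19 became 0.57 and 0.42 with the GC and length trends removed. Hoxb4 and Hoxc4 were the most even of the 12 genes as deposited. The highest library was 1.86 times the lowest for Hoxa4 and 2.94 times for Hoxd3. Hoxa5, Hoxb5 and Hoxc5 had means of 43.9, 60.1 and 28.7 FPKM.

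The posterior end of Hox expression differed by cluster. In the Hoxc cluster the step lay between neighbours: Hoxc5 stood at 20.5, 26.4 and 39.1 FPKM, and Hoxc6, a brachial spinal cord gene, at 0.26, 0.18 and 0.13 FPKM. In the Hoxa cluster the same step lay between Hoxa5 and Hoxa6, which stood at 0.18, 0.25 and 0.86 FPKM. The Hoxb cluster extended further, with Hoxb6 at 18.1, 26.7 and 29.5 FPKM, Hoxb8 at 27.0, 34 and 43.8 FPKM and Hoxb9 at 1.38, 2.46 and 3.26 FPKM. Hoxc8 and Hoxc9, of brachial and thoracic cord, had means of 0.167 and 0.230 FPKM. For 8 genes of groups 10 to 13 there was no count in any control library, Hoxc10 among them, for which 3 counts would equal 0.0199 FPKM. Of the genes in each cluster, 6 of 11 Hoxa, 9 of 10 Hoxb, 2 of 9 Hoxc and 4 of 9 Hoxd genes reached 1 FPKM.

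**Figure D2:**
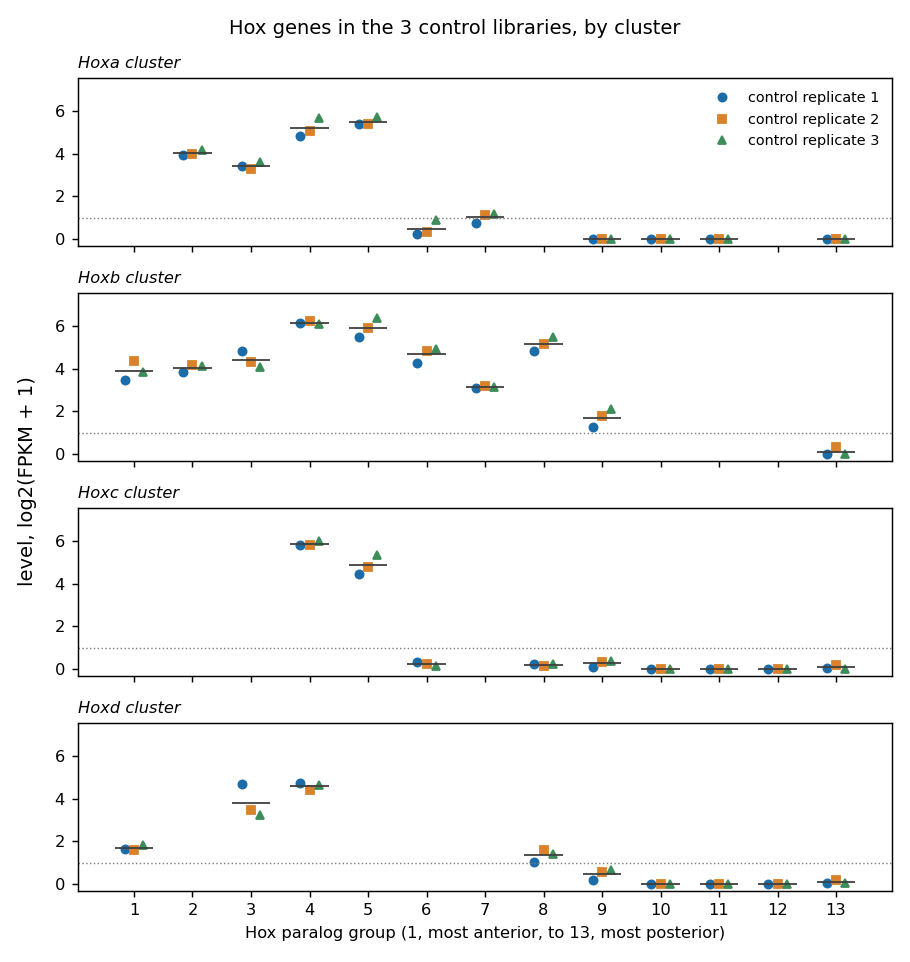
Level of Hox genes as log2(FPKM + 1) on the vertical axis against its paralog group on the horizontal axis, one panel per cluster; points are the 3 control libraries, bars their means, and the dotted line marks 1 FPKM. The Hoxa and Hoxc clusters drop after group 5, whereas Hoxb stays above the line up to group 9.

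Some Hox levels are uncertain because the genes share exonic sequence with neighbours in the annotation. Hoxd3 and Hoxd4 overlap a same-strand gene over 62.3% and 52.3% of their exonic length. Hoxb3 overlaps an antisense gene over 52.9%, and whether counting used the strand is not given. Hoxc6 and Hoxa6, whose low levels mark the steps, share no exonic sequence with another gene.

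Genes of more anterior brain regions were near 0. The median level of 13 forebrain genes was 0.0233 FPKM, and Six3 and Otx2 had 2 and 9 counts in all. Of 9 midbrain and isthmus genes, 2 reached 1 FPKM, Wnt1 and Gbx2, and 43.5% of the exonic length of Gbx2 overlaps an antisense gene. En2 and Pax5, which define that list, had means of 0.0967 and 0.0433 FPKM. Hindbrain genes stood higher as a list, with 5 of 6 at or above 1 FPKM, against 50% of all protein-coding genes. Gbx2, which this list also holds, is among the 5. Egr2, of rhombomeres 3 and 5, was at only 0.06, 0.04 and 0.18 FPKM. Among the caudal inducers, the neuromesodermal genes T, Cdx2 and Nkx1-2 had 15, 4 and 22 counts in all. Cdx1 stood at 0.78, 2.23 and 0.83 FPKM.

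The starts of 4 of these genes are printed to show transcribed and silent genes side by side. Each line gives the 250 bases before the RefSeq start on the gene's strand, 5′ to 3′ (GRCm38.p6, the mm10 assembly), with each CG dinucleotide in capitals. Nkx2-9 (chr12:56613285-56613534, minus strand) and Hoxb4 (chr11:96318017-96318266, plus strand) were transcribed at means of 134 and 69.4 FPKM. Gsx1 (chr5:147188446-147188695, plus strand) had no count, and Afp (chr5:90490464-90490713, plus strand), a yolk sac and liver gene, had 2.
Nkx2-9: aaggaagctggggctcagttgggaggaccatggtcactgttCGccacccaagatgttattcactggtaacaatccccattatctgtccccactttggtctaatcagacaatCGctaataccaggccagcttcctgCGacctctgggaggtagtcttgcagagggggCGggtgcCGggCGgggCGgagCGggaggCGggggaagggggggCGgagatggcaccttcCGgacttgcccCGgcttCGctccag
Hoxb4: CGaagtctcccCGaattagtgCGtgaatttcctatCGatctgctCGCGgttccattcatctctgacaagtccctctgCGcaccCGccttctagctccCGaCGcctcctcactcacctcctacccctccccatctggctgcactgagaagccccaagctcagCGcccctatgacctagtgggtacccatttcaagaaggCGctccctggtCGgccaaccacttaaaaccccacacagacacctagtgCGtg
Gsx1: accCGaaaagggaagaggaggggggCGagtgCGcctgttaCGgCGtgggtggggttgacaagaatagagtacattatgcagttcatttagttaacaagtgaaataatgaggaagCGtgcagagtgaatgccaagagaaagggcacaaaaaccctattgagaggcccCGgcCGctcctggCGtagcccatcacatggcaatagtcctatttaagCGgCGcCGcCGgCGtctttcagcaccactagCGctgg
Afp: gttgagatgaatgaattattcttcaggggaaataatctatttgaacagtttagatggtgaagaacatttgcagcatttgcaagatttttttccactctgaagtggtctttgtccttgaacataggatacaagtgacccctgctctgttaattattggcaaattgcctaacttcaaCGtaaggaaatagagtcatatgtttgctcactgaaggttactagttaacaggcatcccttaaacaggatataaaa
The windows hold 13, 14, 15 and 1 CG, against a median of 6 over all 32851 windows in the RefSeq table. At least as many as in Nkx2-9, Hoxb4 and Gsx1 are found in 31.5%, 29.4% and 27.3% of all windows, and at most as many as in Afp in 18.8%. The silent Gsx1 window was thus as rich in CG as the transcribed ones. These 4 were chosen after their values were seen, from genes whose RefSeq window lies outside the transcribed sequence of the other annotation, and they stand for no larger set.

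Feedback and target genes of both signalling pathways that the culture medium acts on were expressed. Of 16 genes of retinoic acid handling and response, 14 reached 1 FPKM, against 50% of all protein-coding genes. This list and the hedgehog list below also hold carriers and receptors, so their counts are not of target genes alone. Crabp2, which carries retinoic acid to its nuclear receptors (chr3:87948666-87953376, plus strand), stood at 897, 914 and 1062 FPKM and ranked 24th of all protein-coding genes. Crabp1, another retinoic acid-binding protein, stood at 269, 196 and 261 FPKM, and Cyp26a1, the enzyme that degrades retinoic acid and is induced by it, at 64.0, 109 and 105 FPKM. Stra6, a retinol uptake receptor, was at 13.2, 21 and 26.8 FPKM. Rarb, a receptor gene that responds to retinoic acid, had a mean of 5.41 FPKM, but 38.4% of its exonic length overlaps antisense genes. Aldh1a2, which makes retinoic acid, stood at 0.28, 0.34 and 0.22 FPKM.

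Of 12 hedgehog pathway genes, 11 reached 1 FPKM, all but the ligand Shh, against 50% of all protein-coding genes. Ptch1, the receptor and a direct target of the pathway, stood at 77.5, 55.4 and 57.4 FPKM and ranked 692nd. Gli1, the transcription factor that most directly reports pathway activity, stood at 40.7, 26.3 and 28.4 FPKM. Both were highest in replicate 1. Smo, the membrane protein that SAG binds, stood at 37.1, 44.6 and 48.5 FPKM, lowest in replicate 1. Gas1, a co-receptor, stood at 27.9, 51.6 and 52.7 FPKM.

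In maturity, the control cells were rich in progenitor and cell cycle transcripts and poor in those of mature neurons. All 15 neural progenitor genes reached 1 FPKM, with a median of 19.3 FPKM. Sox3, of the same family as Sox2, led them at 88.3, 122 and 132 FPKM. Sox1, another member, stood at 27.4, 28.0 and 27.8 FPKM, a log2 range of 0.03 as deposited and 0.38 with the trends removed. The filament genes Vim and Nes had means of 70.4 and 22.7 FPKM. All 16 proliferation genes were above 10 FPKM, with a median of 75.1 FPKM. Pcna, the replication clamp, stood at 221, 137 and 191 FPKM, and Plk1, a mitotic kinase, at 82.2, 124 and 158 FPKM.

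**Figure D3:**
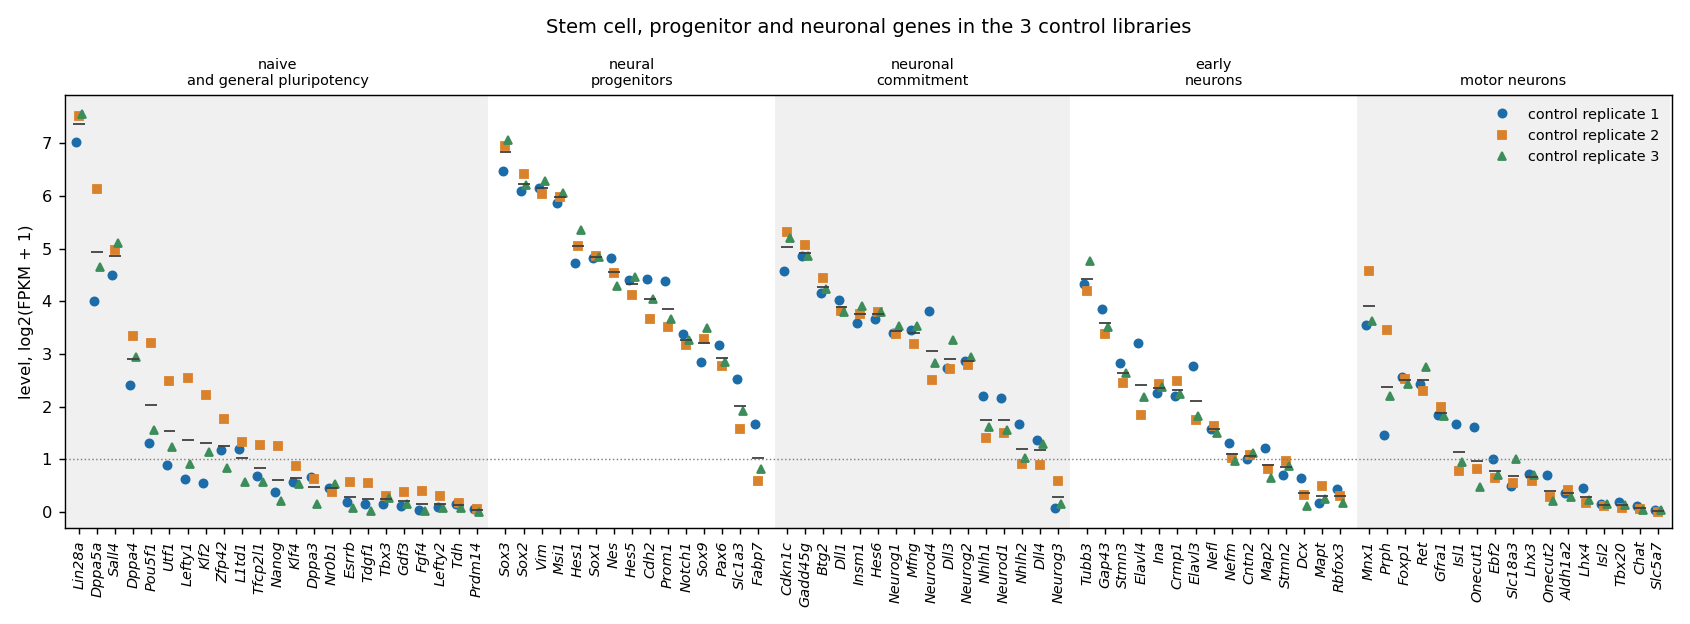
Level as log2(FPKM + 1) on the vertical axis of genes grouped by stage from pluripotency to motor neurons on the horizontal axis; points are the 3 control libraries, bars their means, and the dotted line marks 1 FPKM. Neural progenitor genes are all above the line, motor neuron genes lie on both sides of it, and control replicate 2 is the highest library for most pluripotency genes.

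Neuronal commitment genes were present at moderate levels. Of 17 members, 16 reached 1 FPKM, against 50% of all protein-coding genes, with a median of 9.57 FPKM. Dll1, the Notch ligand of committing cells, stood at 15.4, 13.1 and 13 FPKM, Hes6 at 11.7, 12.9 and 12.9 FPKM and Neurog1 at 9.55, 9.44 and 10.5 FPKM. Neurod4 stood at 13.1, 4.69 and 6.09 FPKM, higher in replicate 1. Among early neuron genes, 10 of 15 (66.7%) reached 1 FPKM, not far above the 50% of all protein-coding genes, and the list median was 1.97 FPKM. They were led by Tubb3 and by Gap43, a growth cone gene, at 13.4, 9.43 and 10.5 FPKM. Elavl3, an RNA-binding protein of young neurons, was at 5.87, 2.34 and 2.54 FPKM, and Dcx, a microtubule protein of migrating neurons, at 0.56, 0.25 and 0.08 FPKM.

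Sox2 exceeded Tubb3 in every library, by 3.54, 4.85 and 2.79 times. Of 15 synaptic and late neuron genes 3 reached 1 FPKM, among them Vamp2 and Syp, against 50% of all protein-coding genes. The defining genes of that list, Syt1 and Snap25, had means of 0.0367 and 0.0900 FPKM. Of 12 glial genes 1 did: Mbp, at 2.97, 4.33 and 3.92 FPKM. Gfap, of astrocytes, and Sox10, of oligodendrocyte precursors and neural crest, had 30 and 6 counts in all.

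Pluripotency genes were not all silent, and they were highest in control replicate 2. Of 23 naive and general pluripotency genes, 10 (43.5%) reached 1 FPKM, a little under the 50% of all protein-coding genes. Pou5f1, which encodes Oct4, stood at 1.49, 8.31 and 1.93 FPKM, and Nanog at 0.31, 1.38 and 0.16 FPKM. Replicate 2 was therefore apart from the other two for both. Dppa5a, an RNA-binding protein gene of embryonic stem cells, was also highest in replicate 2, at a higher level of 15.2, 69.4 and 24.1 FPKM. Klf2 stood at 0.47, 3.69 and 1.20 FPKM, and Zfp42, a further stem cell marker, at 1.28, 2.39 and 0.78 FPKM. Of the 23 genes, 18 were highest in replicate 2, whereas over all 17209 protein-coding genes with a count replicates 1, 2 and 3 were highest for 37.4%, 34.1% and 25.7%. The summed level of the list was 179, 324 and 259 FPKM, most of it from Lin28a, and its median log2(FPKM + 1) was 0.66, or 0.55 without replicate 2. Sox2 exceeded Pou5f1 by 45.2, 10.1 and 37.7 times.

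Lin28a and Sall4, which with Dppa5a are the members above 10 FPKM, did not follow this pattern. Lin28a, an RNA-binding protein gene that early neural progenitors also express, stood at 129, 183 and 186 FPKM, and Sall4 at 21.7, 30.6 and 33.4 FPKM, with replicate 3 highest for both. Over the 10 members at or above 1 FPKM, the mean deviation from the 3-library mean of log2(FPKM + 1) was -0.49, 0.70 and -0.21, beside medians of -0.07, 0.04 and 0.01 over all 10939 genes. With the GC and length trends removed it was -0.26, 0.58 and -0.31. Of 8 primed epiblast genes, with a median of 1.14 FPKM over the list, 5 (62.5%) reached 1 FPKM, against 50% of all protein-coding genes. Its defining genes Fgf5 and Otx2 had means of 0.110 and 0.0233 FPKM. Dnmt3b, a DNA methyltransferase gene of that list, stood at 13, 18.8 and 18.8 FPKM.

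Simple epithelial genes were abundant in the control cells and also highest in replicate 2. Epcam, a surface protein of epithelia and of pluripotent cells, stood at 24.0, 58.8 and 32.6 FPKM. Cdh1, which encodes E-cadherin, stood at 30.5, 52.9 and 38.4 FPKM, and the keratin gene Krt18 at 41.3, 94.7 and 86.5 FPKM. The tight junction gene Cldn6 stood at 31.4, 69.7 and 52.9 FPKM. All 4 were lowest in replicate 1 and highest in replicate 2. Of the 11 genes of surface ectoderm and epithelium, 6 (54.5%) reached 1 FPKM, near the 50% of all protein-coding genes. Replicate 2 was highest for 8 of the 11, against 34.1% of protein-coding genes with a count. The genes of stratified surface ectoderm were not among the 6: Krt5 stood at 0.50, 0.75 and 0.78 FPKM, Trp63 had 4 counts in all and Krt14 none. The mean deviation of the 6 genes was -0.65, 0.56 and 0.10, and -0.34, 0.42 and -0.07 with the trends removed. The summed level of the list was 160, 364 and 276 FPKM. Both lists deviated upward in replicate 2 and downward in replicate 1, but in replicate 3 the pluripotency list deviated by -0.21 and this one by 0.10. Whether both come from the same cells was not tested.

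Defining markers of endothelium, blood and neural crest were near 0, whereas those of endoderm and mesoderm varied from gene to gene. Among 11 endothelial and blood genes none reached 1 FPKM, and Pecam1, Cdh5 and Gata1 had means of 0.14, 0.06 and 0.0633 FPKM. Of 8 neural crest genes 2 did, Twist1 and Ets1, while Sox10 and Tfap2a had 6 and 21 counts in all. Of 12 endoderm genes 2 did, Gata6 and Apoe. Apoe, which neural progenitors also express, stood at 70.3, 172 and 122 FPKM, whereas Sox17 and Gata4 had means of 0.853 and 0.587 FPKM and Afp had 2 counts. Of 13 mesoderm genes 6 (46.2%) did, near the 50% of all protein-coding genes. Highest were Osr1 at 4.59, 6.93 and 9.16 FPKM and Meox1, a gene of somites, at 5.01, 8.26 and 4.11 FPKM. Mesp1 and Tbx6, also defining genes of mesoderm, had means of 0.0133 and 0.433 FPKM.

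Feeder fibroblasts were present in the stem cell culture, so their genes were read as well. Of 12 such genes 4 reached 1 FPKM, led by Col1a2 at 3.35, 4.08 and 6.47 FPKM and Acta2 at 2.25, 3.92 and 5.06 FPKM. Col1a1 stood at 1.20, 2.76 and 1.40 FPKM. Lum and Dcn, the other defining fibroblast genes, had means of 0.0167 and 0.140 FPKM.

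The spread between the control libraries was uneven across genes. Of 10939 protein-coding genes with a mean of at least 1 FPKM, 1182 (10.8%) had a highest library at least 2 times the lowest on the FPKM + 1 scale. Replicate 1 was the highest for 867 of them (73.4%), replicate 2 for 220 (18.6%) and replicate 3 for 95 (8.04%). Between replicates 2 and 3 alone, 46 genes (0.421%) differed 2-fold, against 728 and 984 in the pairs with replicate 1. The biological coefficient of variation is edgeR's estimate of the spread beyond counting error. Estimated from the 12453 genes of any type with a mean of at least 1 FPKM, it was 31.1% over the 3 libraries and 15.2% without replicate 1.

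**Figure D4:**
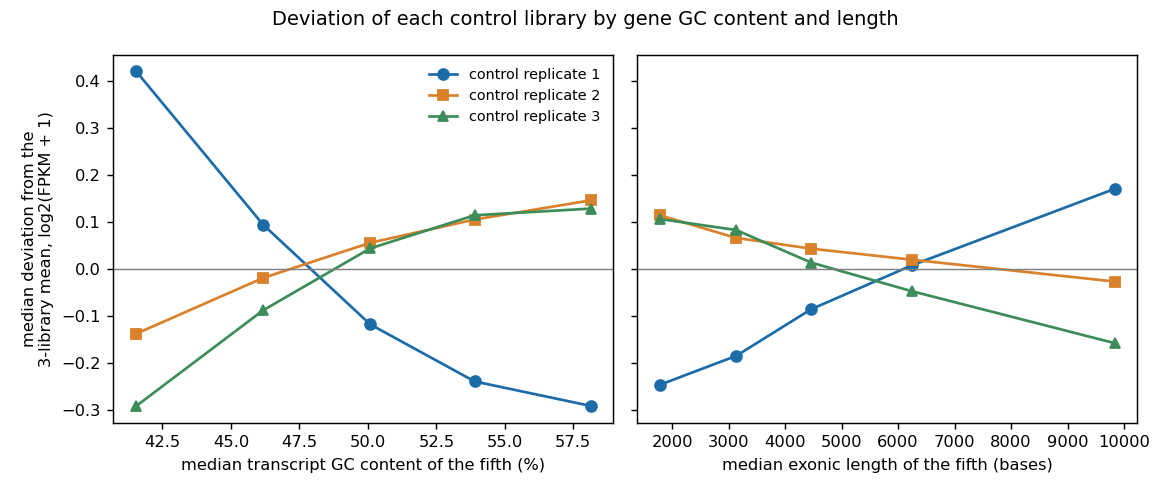
Median deviation of each control library from the 3-library mean of log2(FPKM + 1), on the vertical axis, for protein-coding genes in 5 bins of equal size by transcript GC content (left, %) and exonic length (right, bases) on the horizontal axes; lines join the bins of 1 library. Control replicate 1 runs from 0.42 in the lowest GC bin to -0.29 in the highest, opposite to replicates 2 and 3.

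Base composition and length moved with the spread. In the lowest of 5 bins by GC content, replicate 1 deviated by a median of 0.42 on the log2 scale and 32.6% of genes had a 2-fold range. In the highest GC bin its deviation was -0.29. By exonic length, replicate 1 went from -0.25 in the bin of shortest genes to 0.17 in that of the longest. With these trends removed, 425 genes (3.89%) had a 2-fold range. The origin of the trends was not tested.

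Of the 4885 protein-coding genes with a mean of at least 10 FPKM, 413 had a 2-fold range. The 10 with the largest range were mt-Nd6, Cenpf, Cenpe, Rif1, Mki67, Hspb1, Ranbp2, Mt2, Smc2 and mt-Co2. Cenpf and Cenpe, kinetochore proteins of mitosis, stood at 25.5, 3.86 and 3.14 FPKM and at 27.3, 4.12 and 3.84 FPKM. Mki67, which encodes the proliferation marker Ki-67, stood at 78.2, 13.1 and 14.3 FPKM. Replicate 1 was high and the others were close together for all 3 of these genes. Top2a, a topoisomerase of dividing cells, followed with 120, 51.7 and 48.1 FPKM.

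Other genes of dividing cells did not share this order. Cdk1, the mitotic kinase, stood at 35.5, 44.1 and 47.0 FPKM, Mcm2, of the replicative helicase, at 61.1, 76.7 and 92.9 FPKM, and Ccnb1, a mitotic cyclin, at 84.3, 71.0 and 81.6 FPKM. The log2 ratio of Mki67 over Cdk1 was 1.14 in replicate 1 and -1.75 and -1.72 in the others. Of the 16 proliferation genes, 2 had a 2-fold range, a share near the 10.8% over all genes. Of the same 16, 6 were highest in replicate 1, none in replicate 2 and 10 in replicate 3. Over all protein-coding genes with a count, these replicates were highest for 37.4%, 34.1% and 25.7%. The range of Mki67 on the log2 scale was 2.49, and 2.28 with the GC and length trends removed.

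Hspb1 and Mt2 varied in the other direction. Hspb1, a small heat shock protein gene, stood at 4.75, 30.8 and 21.1 FPKM, and Mt2, a metallothionein gene, at 50.8, 269 and 179 FPKM. Both were lowest in replicate 1 and highest in replicate 2. Among 17 integrated stress response genes at or above 1 FPKM, which include Atf4 at 73.1, 58.5 and 77.4 FPKM, the mean deviation was 0.12, -0.18 and 0.06, and 0.35, -0.29 and -0.05 with the trends removed. Chac1, a target of that pathway, stood at 12.5, 4.5 and 10.4 FPKM. Ddit4, a stress-induced inhibitor of growth signalling, stood at 90.6, 183 and 70.2 FPKM. Of 20 hypoxia and glycolysis genes, 19 reached 1 FPKM, against 50% of all protein-coding genes. Replicate 2 was highest for 12 of the 20, against 34.1% of protein-coding genes with a count. In this list Bnip3, a mitophagy gene induced by low oxygen, stood at 57.0, 67.5 and 55.6 FPKM. Aldoa, a glycolytic enzyme gene, stood at 380, 844 and 680 FPKM.

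**Figure D5:**
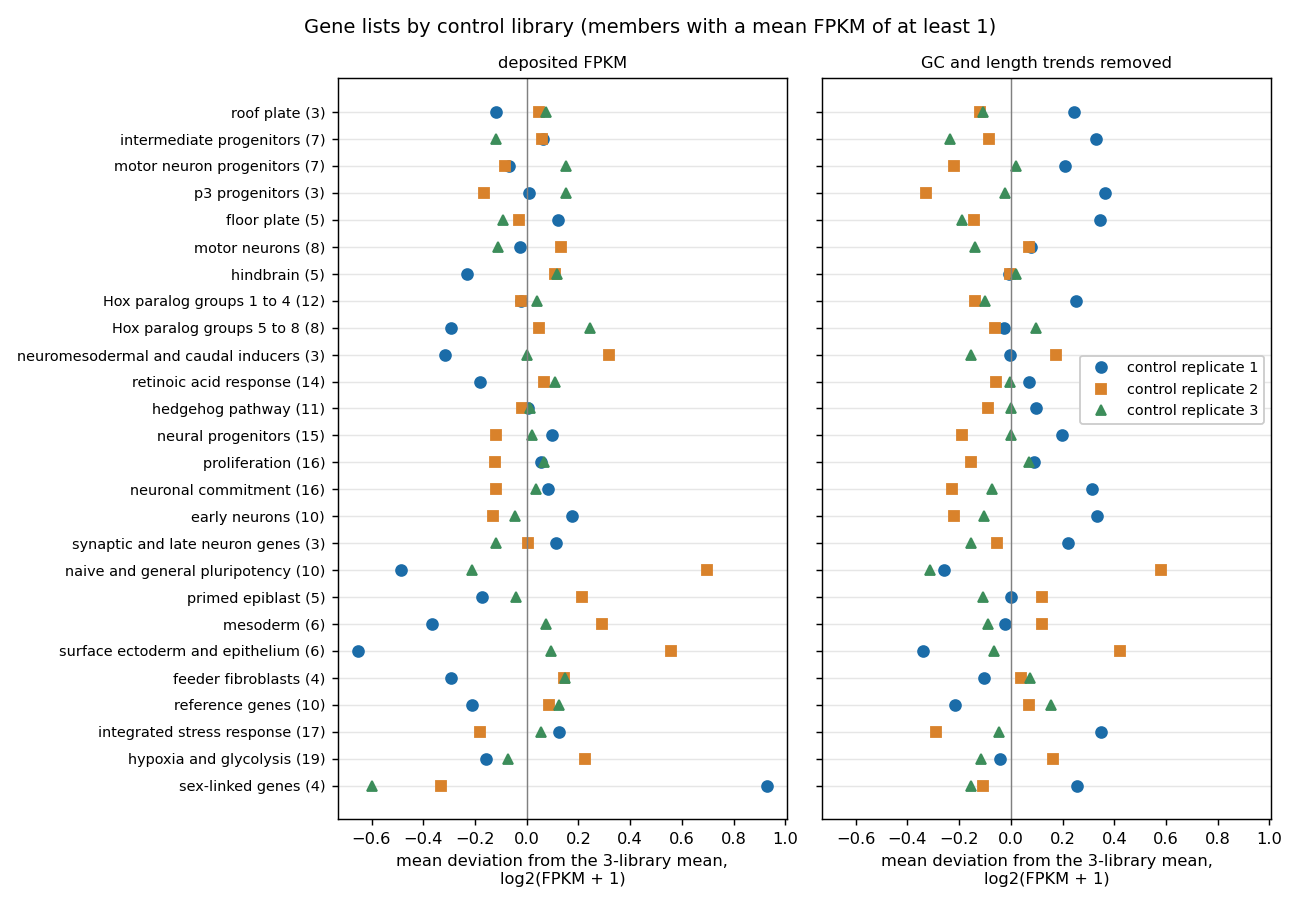
Mean deviation of each control library from the 3-library mean of log2(FPKM + 1), on the horizontal axis, for gene lists on the vertical axis with at least 3 members at or above 1 FPKM (number in brackets), as deposited (left) and with GC and length trends removed (right). Control replicate 2 is highest for the pluripotency and epithelial lists in both panels, and the sex-linked list of replicate 1 moves from 0.93 to 0.26.

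The domain and pathway lists differed in how far the libraries deviated. For the 7 motor neuron progenitor genes at or above 1 FPKM the deviations were -0.07, -0.08 and 0.15, and 0.21, -0.22 and 0.02 with the trends removed. For the 11 hedgehog genes they were within 0.02 of 0 as deposited, and 0.10, -0.09 and 0.00 with the trends removed. These means hide members that moved in opposite directions. Of the 11, 5 were highest in replicate 1, 2 in replicate 2 and 4 in replicate 3, and 1 had a 2-fold range. Of the 8 Hox genes of groups 5 to 8 at or above 1 FPKM, none was highest in replicate 1, against 37.4% of protein-coding genes with a count. The list deviated by -0.29, 0.05 and 0.24. With the trends removed these values were -0.02, -0.06 and 0.10. The Y-linked genes Ddx3y and Eif2s3y were detected in every library, at 10.5, 2.16 and 1.31 FPKM and at 6.57, 2.28 and 1.64 FPKM, and the X-inactivation transcript Xist had a mean of 0.143 FPKM.

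At the other end of the same 4885 genes, the 10 with the smallest range spanned at most 0.02 on the log2 scale: Ube2j1, Lzic, Blcap, Eif4enif1, Nup210, Ctps, Arid3a, Stt3b, Pomp and Blmh. Ube2j1, a ubiquitin-conjugating enzyme of the endoplasmic reticulum, stood at 13.6, 13.6 and 13.5 FPKM. Common reference genes were less even, with Actb at 451, 747 and 904 FPKM and Gapdh at 72.8, 141 and 146 FPKM, both lowest in replicate 1. Removing the trends widened the ranges of the 10 genes to between 0.06 for Ctps and 0.61 for Blmh. Ranges of at most 0.02 thus hold for the deposited scale.

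The 10 most abundant nuclear-encoded protein-coding genes were Eef1a1, Rplp1, Hsp90ab1, Mdk, Ftl1, Rps2, Rps15, Rplp0, Ptma and Rps3a1. Eef1a1, a translation elongation factor gene, had a mean of 4072 FPKM. Mdk, a secreted growth factor gene of the developing nervous system, stood at 1388, 2120 and 2132 FPKM. Ftl1, the ferritin light chain gene, stood at 764, 2468 and 2137 FPKM. Levels of the ribosomal, Eef1a1 and Ftl1 genes are uncertain because processed copies elsewhere in the genome share their sequence.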

How the data were processed

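Polyadenylated RNA was measured by RNA-seq, and the 3 control libraries were taken from the sample titles. The authors deposited 1 table of 55400 genes, which gives for each library the raw count and the FPKM, and for each gene its exonic length, per the file headers. The mm10 build, HISAT2, HTSeq, SAMtools and DESeq2 are listed, with no role or version, per the submitters' processing notes. The annotation release and the strand setting were not given in the sources used here. Recomputing the deposited FPKM from count, exonic length and library total gave the same values to within 0.005. Gene symbols, coordinates and GC content were taken from GENCODE M21 on mm10, which held 55140 of the identifiers (99.5%) with the same exonic length for 99.0% of those. A difference in base composition or transcript length between libraries changes FPKM, since only the total was scaled.

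Levels are means ± SD of FPKM. Ranges and deviations use log2(FPKM + 1) and protein-coding genes with a mean of at least 1 FPKM. The spread beyond counting was estimated from the counts with TMM scaling in edgeR 4.0.16 (R 4.3.3), with DESeq2 1.42.0 as an alternative, and the edgeR step was tested on simulated data. Trends on GC content and length were removed with lowess (fraction 0.3, statsmodels 0.14.6), a step added after seeing the data. Figures used matplotlib 3.10.9. One group is described, so no test between groups was made.

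The 36 gene lists and the members named were chosen with earlier results of these data known. Named are the 6 markers (Olig2, Nkx6-1, Sox2, Neurog2, Mnx1 and Tubb3), the defining genes and up to 4 highest members of each list described, the 10 most abundant genes, the 10 with the largest and the 10 with the smallest range, and Setd5. Other list members were named after their values were seen, and single-gene results of some members are not reported here or drawn in the plots of single genes, although the list counts and list means include them. Alternatives were other scalings, pseudocounts, filters, TPM in place of FPKM, and leaving out each library.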

Additional observations from a re-analysis of the deposited data

How the results depend on the processing

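The number of genes with a 2-fold range, 1182, depended on control replicate 1: leaving out 1 library at a time gave 45 to 995, the lowest without replicate 1 and the highest without replicate 2, with 734 without replicate 3. It was 1892 with a pseudocount of 0.1 and 425 with the GC and length trends removed, an alternative chosen after seeing the data. TMM and DESeq2 scaling gave 1180 and 1199. With a minimum mean of 10 FPKM it was 413 of 4885 genes (8.45%), against 10.8% of the 10939 genes with a mean of at least 1 FPKM. The biological coefficient of variation of 31.1% ranged from 15.2% without replicate 1 to 37.6% without replicate 2. Genes with a mean of at least 1 FPKM numbered 12138 to 12694 over the libraries left out. A mean of 1 TPM, which 15796 genes reached, is a looser cut, since the Olig2 mean of 73.6 FPKM was 239 TPM. At least 10 counts in each control library were held by 14720 genes. With 3 libraries, leaving out 1 cannot move a mean by as much as its SD, so the single levels and ratios under each library left out say nothing of their stability, and the SD itself is imprecise. The lowest levels, such as those of Sim1 and Evx1, rest on few counts. No paired analysis was possible because 1 group is described and no test between groups was made.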
